A study of Mus musculus with 6 samples.

Results

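The activity-regulated immediate early genes are a set of 10 genes whose transcription rises when a neuron is driven to fire. *Fos*, *Fosb*, *Junb*, *Egr1*, *Npas4* and *Nr4a1* encode transcription factors. *Arc*, *Bdnf*, *Homer1* and *Nptx2* encode proteins that act at synapses or are secreted there. The members were chosen by name, and all 10 of 10 were found among the 50508 gene symbols listed for primary mouse neurons. Their values were compared between 3 libraries labelled sgKcna1 and 3 libraries labelled sgLacZ.

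In both groups the neurons carried a lentivirus that expresses dCas9-VP160, a nuclease-dead Cas9 joined to a transcriptional activator, under the Ef1α promoter, which is not restricted to neurons. In sgKcna1 cultures the guide (sg19) directs this activator to the promoter of *Kcna1*, which encodes the potassium channel Kv1.1 that restrains firing, and in sgLacZ cultures the guide matches a bacterial gene. The labels call the cells hippocampal neurons, whereas the methods describe cortical neurons of newborn C57Bl/6J pups transduced the day after plating, and they give differing culture times for the RNA. The study mentions independent repetitions in general terms, but neither its RNA methods nor the labels say whether these replicates came from separate cultures or animals, so that p-values measure the spread between these libraries, which may be technical.

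When a neuron is depolarised, calcium entry and kinase cascades activate factors already present, among them CREB, SRF and MEF2, and these switch on the immediate early genes within minutes without new protein synthesis. The resulting factors then act on later genes. They are widely used to tell which neurons fired recently, and the comparison asks how their transcripts stood in cultures whose own *Kcna1* gene was driven upward.

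The promoters of several of these genes are known for cAMP and calcium response elements, and the sites below show where the half-site of that element was matched. RefSeq promoter windows (GRCm38.p6, 250 bases before to 50 after a transcription start) were at hand for 7 of the 9 members looked for, in 14 windows, and *Egr1* was not looked for. The half-site TGACG, searched on both strands, was present in 7 of the 14 windows, 1 for each gene, and 20.8% of all 32817 promoter windows hold it. *Fos* and *Npas4* had 2 matches each, *Homer1* 3, *Nr4a1* 4 and the others 1, and the match nearest the transcription start is shown for each gene. Capitals mark every half-site in a run (CGTCA where it lies on the other strand), and each run is written 5′ to 3′ along the gene.
*Fos*, chr12:85473813-85473840, plus strand: gttccgcccagTGACGtaggaagtccat
*Fosb*, chr7:19310089-19310116, minus strand: ggagttgcgggTGACGcaagcgcggggg
*Junb*, chr8:84978838-84978865, minus strand: cttcctgacagTGACGcgagccgcctcc
*Npas4*, chr19:4990124-4990151, minus strand: aCGTCAcgggaTGACGtcggaagtctgg
*Nr4a1*, chr15:101266795-101266822, plus strand: ccctctccatgCGTCAcggagcgcttaa
*Bdnf*, chr2:109692390-109692417, plus strand: atgacagctcaCGTCAaggcagcgtgga
*Homer1*, chr13:93303732-93303759, plus strand: gaggagcgcgcTGACGttgctatttaaa
The full element TGACGTCA (1.79% of all windows), the CArG box bound by SRF (1.63%) and the NR4A element AAAGGTCA (1.51%), each searched on both strands, had no match in these 14 windows. The EGR motif GCGNGGGCG (5.56% of all windows) was found in the windows of *Fosb* and *Nr4a1*, where it begins 50 and 60 bases before the start. The AP-1 motif TGANTCA (7.81%) was found in 1 of the 7 windows of *Bdnf*. A match is a run of letters, and binding was not measured. Sites more than 250 bases before a start lie outside these windows and could not be matched.

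The deposited values are whole numbers that sum to between 999047 and 999717 in each library, and they were taken as reads per 1000000, rounded by the authors. A listed 0 then stands for less than 0.5 on this scale, and how many reads lie behind a value cannot be told. Each library listed 14788 to 15417 genes above 0. Because the library method reads the 3′ end of each transcript, values were compared between genes without division by length. *Kcna1* itself was listed at 16 in every sgLacZ library and at 68, 47 and 65 in the sgKcna1 libraries, a log2 fold change of 1.83 (standard error 0.16) with an adjusted p of 0.034 from limma, as the guide of each label would have it. With the replicate number as a block this adjusted p was 0.11, and with each library left out in turn it lay between 0.019 and 0.14, under 0.05 only without sgLacZ replicate 3.

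Most of the set was listed at low values in both groups. Of the 10 members, 3 reached a mean value of 10 over the 6 libraries, 7 were above 0 in every library, and 10 were above 0 in at least 1 library and so entered the test. Summed over the set, the values were 162, 153 and 129 in sgLacZ and 143, 138 and 146 in sgKcna1 libraries, so that the sgKcna1 sums lay inside the sgLacZ range. *Homer1* and *Bdnf* stood highest, with means of 50.3 and 46.3 over the 6 libraries, and their ranges overlapped. *Egr1* followed with a mean of 24.3, and its range of 13 to 30 touched neither that of *Bdnf* (41 to 56) nor that of *Junb* (5 to 12). Below it *Junb*, *Fos*, *Npas4*, *Nptx2*, *Nr4a1*, *Fosb* and *Arc* came in this order, and each touched or overlapped the range of the next.

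**Figure D1:**
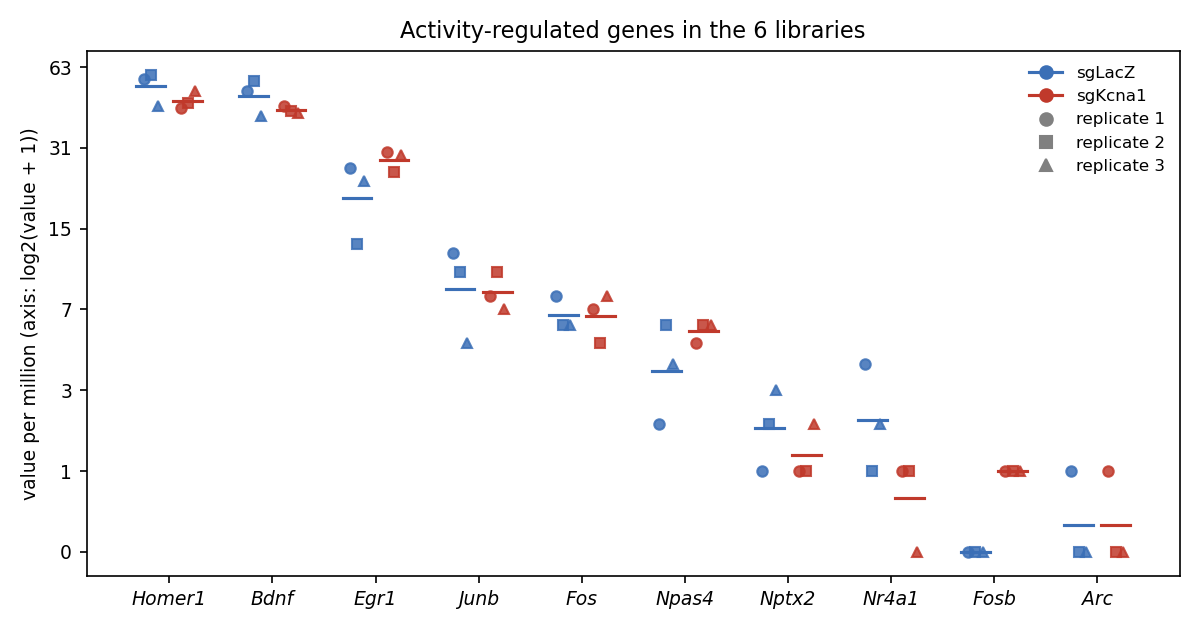
Values of the 10 genes in each library, with genes on the horizontal axis from the highest to the lowest mean and the value per 1000000 reads on a log2(value + 1) axis. Points are libraries (shape gives the replicate number), and bars are group means of log2(value + 1); *Homer1* and *Bdnf* lie between 41 and 59, *Arc* and *Fosb* at 0 or 1.

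Between the groups, 0 of the 10 members had an adjusted p under 0.05 (limma on log2(value + 1), Benjamini-Hochberg adjustment over 19504 genes), where 1.16% of all genes tested passed. Before adjustment 1 member, *Fosb*, had a p under 0.05, against 23.2% of all genes tested. The groups of this gene alone did not overlap, against 22.2% of all genes tested. The median log2 fold change over the members was -0.02, equal to the median of -0.02 over all genes tested. Without *Fosb*, which was listed at 0 in one group, it was -0.04. Fewer cells of a type and less RNA per cell cannot be told apart in these bulk cultures.

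**Figure D2:**
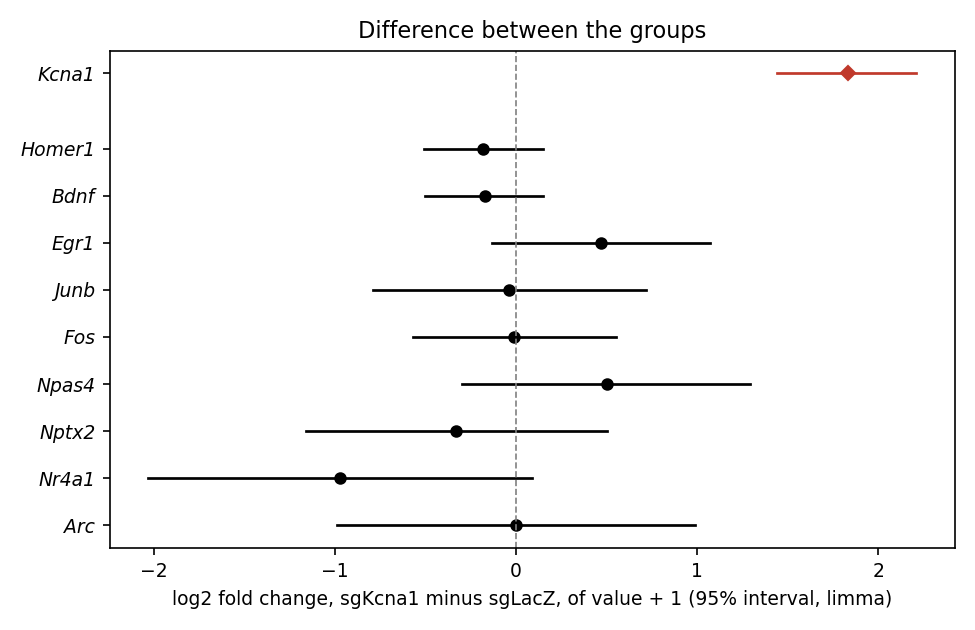
Log2 fold change of value + 1, sgKcna1 minus sgLacZ, on the horizontal axis, for 9 of the 10 genes and for *Kcna1*; points are estimates and lines 95% intervals from limma, with 3 libraries per group. All 9 intervals include 0, and that of *Kcna1* runs from 1.44 to 2.21. *Fosb* is left out because it was listed at 0 in one group.

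Among the transcription factors, *Egr1*, a zinc finger factor that is often used as a marker of recent firing, was the most abundant. It was listed at 26, 13 and 23 in sgLacZ and at 30, 25 and 29 in sgKcna1 libraries, with means of 20.7 ± 6.81 and 28 ± 2.65 (SD, n = 3). The groups overlapped, since sgLacZ replicate 1 exceeded sgKcna1 replicate 2, and sgLacZ replicate 2 lay far below the rest. The log2 fold change was 0.47 (95% interval -0.13 to 1.07, adjusted p = 0.30 from limma). It was 0.18 without sgLacZ replicate 2 and 0.66 without sgLacZ replicate 1. The spread between its replicates, a residual SD of 0.37 on the log2 scale, was larger than the median of 0.21 over the 8050 genes whose mean value was at least 10.

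*Fos*, the DNA-binding partner of the Jun proteins in AP-1, was listed at 8, 6 and 6 in sgLacZ and at 7, 5 and 8 in sgKcna1 libraries. Both groups had a mean of 6.67, and the log2 fold change was -0.01 (95% interval -0.57 to 0.55). *Junb*, one of those partners, was listed at 12, 10 and 5 and at 8, 10 and 7, and its log2 fold change was -0.04 (95% interval -0.79 to 0.72). The groups overlapped in both genes, and the sign of these near-zero differences turned with another scaling, to 0.07 for *Fos* and 0.04 for *Junb* with median-of-ratios factors, which move the median of the 8050 genes described above by 0.08. *Npas4*, a factor that responds to calcium entry and is largely restricted to neurons, was listed at 2, 6 and 4 and at 5, 6 and 6. Its log2 fold change was 0.50 (95% interval -0.30 to 1.29), 0.17 without sgLacZ replicate 1 and 0.78 without sgLacZ replicate 2. Rounding alone lets the ratio of its group means lie between 1.15 and 1.76.

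*Fosb*, a relative of *Fos* whose product accumulates under repeated stimulation, was listed at 0 in all 3 sgLacZ libraries and at 1 in all 3 sgKcna1 libraries. The groups did not overlap, yet the difference is a single step of the rounding. The adjusted p from limma was 0.056, and it ranged from 0.03 to 0.14 over the alternative settings that kept the gene. The same pattern of 0 in one group and 1 in the other was found in 60 genes, and the opposite pattern in 35. When limma was run without the intensity trend, all 95 of these genes were among the 201 genes (1.03%) with an adjusted p under 0.05, so that *Fosb* passed there (adjusted p = 0.03) together with every gene listed in this way. It also passed without sgLacZ replicate 3 (adjusted p = 0.033). *Nr4a1*, an orphan nuclear receptor, was listed at 4, 1 and 2 and at 1, 1 and 0. The groups met at 1, and the log2 fold change was -0.97 with a 95% interval from -2.03 to 0.09 (adjusted p = 0.25 from limma). With each library left out in turn it ranged from -1.29 without sgLacZ replicate 2 to -0.63 without sgLacZ replicate 1.

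Among the effectors, *Bdnf*, the neurotrophin that signals through the receptor TrkB, was listed at 51, 56 and 41 in sgLacZ and at 45, 43 and 42 in sgKcna1 libraries. The means were 49.3 ± 7.64 and 43.3 ± 1.53 (SD, n = 3), with a log2 fold change of -0.17 (95% interval -0.50 to 0.15, adjusted p = 0.51 from limma). *Homer1*, a scaffold that ties metabotropic glutamate receptors to their partners at the postsynaptic density, was listed at 57, 59 and 45 and at 44, 46 and 51. Its means were 53.7 ± 7.57 and 47 ± 3.61 (SD, n = 3), and its log2 fold change was -0.18 (95% interval -0.51 to 0.15, adjusted p = 0.51 from limma). In both genes sgLacZ replicates 1 and 2 were above every sgKcna1 library, while sgLacZ replicate 3 lay among or below them. Without that library the log2 fold change was -0.30 for each, with adjusted p of 0.087 and 0.11 from limma, and without sgLacZ replicate 2 it was -0.08 for *Bdnf* and -0.11 for *Homer1*. A single value is given per symbol, so that the short, activity-induced form of *Homer1* and the alternative transcripts of *Bdnf* cannot be separated.

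*Arc*, whose product governs the removal of AMPA receptors from synapses, was listed at 1 in sgLacZ replicate 1 and sgKcna1 replicate 1 and at 0 in the other 4 libraries. A difference in *Arc* could not be detected at these values. *Nptx2*, a secreted pentraxin that gathers AMPA receptors, was listed at 1, 2 and 3 and at 1, 1 and 2. Its groups overlapped, with a log2 fold change of -0.33 (95% interval -1.16 to 0.50), which was -0.60 without sgLacZ replicate 1 and -0.10 without sgLacZ replicate 3, and rounding alone lets the ratio of its means lie between 0.333 and 1.22, on either side of equality. With 3 libraries against 3, the smallest p of a two-sided exact permutation test is 0.1, and no member other than *Fosb* reached it.

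The relatives of these factors differed widely in level. In the AP-1 family, which binds DNA as pairs of Fos and Jun proteins, *Jun*, *Fosl2* and *Jund* carried most of the values. *Jun* was listed at 97, 94 and 98 in sgLacZ and at 104, 101 and 96 in sgKcna1 libraries, with a log2 fold change of 0.06 (95% interval -0.15 to 0.26). *Fosl2* was listed at 96, 103 and 99 and at 78, 101 and 74, with a log2 fold change of -0.25 (95% interval -0.56 to 0.07). *Fosl1* and *Batf* were listed at 0 in every library. Of the 7 other AP-1 genes on the list, 5 were tested and 0 had an adjusted p under 0.05. Before adjustment 1 was higher and 0 were lower, against 9.59% and 13.6% of all genes tested. The higher gene was *Jdp2*, named after its values were seen, with a log2 fold change of 0.55.

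In the NR4A and EGR families the member was not always the leading gene. Of 6 tested relatives and corepressors 0 had an adjusted p under 0.05, and before adjustment 0 were higher and 4 lower, against 13.6% lower of all genes tested. *Nr4a3* was listed at 225, 226 and 147 in sgLacZ and at 154, 144 and 138 in sgKcna1 libraries, against at most 4 for *Nr4a1*. Its groups overlapped through sgLacZ replicate 3 alone, and the log2 fold change was -0.43 (95% interval -0.84 to -0.01, adjusted p = 0.20 from limma). *Nr4a2* was listed at 93, 93 and 73 and at 71, 65 and 64, without overlap, with a log2 fold change of -0.36 (95% interval -0.66 to -0.06, adjusted p = 0.14 from limma). Without sgLacZ replicate 3 both had an adjusted p under 0.05, as did *Nab2*, a corepressor of the EGR factors, so that 3 of the 6 tested genes on this list passed there, all lower, against 14.2% of all genes in that setting. *Egr4*, named after its values were seen, was listed at 4, 3 and 3 in sgLacZ and at 2, 1 and 2 in sgKcna1 libraries, without overlap. Its log2 fold change was -0.72 (adjusted p = 0.18 from limma). *Egr3* was listed at 0 in every library and *Egr2* at no more than 1, so that *Egr1* had the highest value of the EGR genes in every library.

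**Figure D3:**
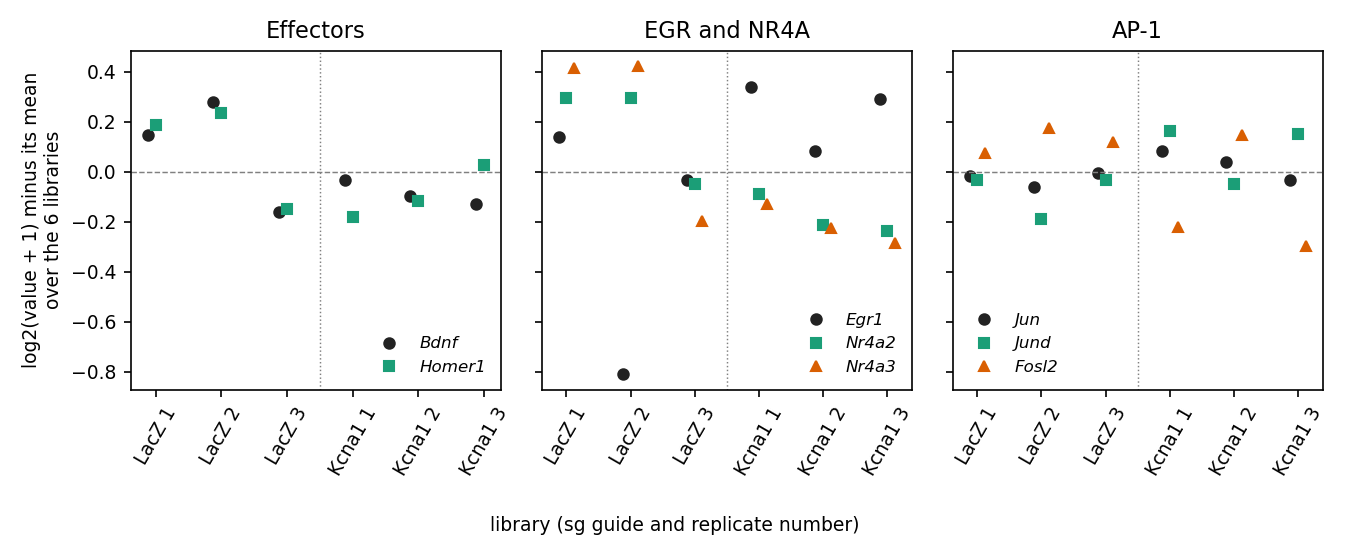
Log2(value + 1) of 8 genes in each library, minus the gene's mean over the 6 libraries, with libraries on the horizontal axis and genes told apart by colour and shape. *Bdnf*, *Homer1*, *Nr4a2* and *Nr4a3* are high in sgLacZ replicates 1 and 2 and near the sgKcna1 level in sgLacZ replicate 3, and *Egr1* is low in sgLacZ replicate 2.

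The profiles nearest to those of the abundant members, by root mean square distance of centred log2 values over the 6 libraries among 8050 genes, were those of *Ccdc137* for *Bdnf* (0.034), *Rpa1* for *Homer1* (0.046) and *Mroh1* for *Egr1* (0.11). *Rpa1* was listed at 50, 56 and 41 in sgLacZ and at 40, 44 and 45 in sgKcna1 libraries, which is the same dip in sgLacZ replicate 3 as in *Homer1*.

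Beyond the 10 members, 102 other genes of the activity pathway were followed in 6 lists, and 99 were above 0 in at least 1 library. Of these, 0 had an adjusted p under 0.05 from limma. Before adjustment 33 of them (33.3%) had a p under 0.05, 9 higher and 24 lower, against 9.59% higher and 13.6% lower of all genes tested. Many of these genes were well expressed, and among the 60 whose mean value was at least 10 there were 7 higher and 16 lower, where 16.1% and 23.6% of the 8050 such genes were higher and lower. Their median log2 fold change was -0.12, beside -0.06 over those 8050 genes.

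The list of other early response genes held 33 genes, of which 2 were higher and 7 lower before adjustment. Over all genes tested, 9.59% were higher and 13.6% lower. The median log2 fold change of the list was -0.21. The most abundant were *Ier5*, listed at 183, 201 and 167 and at 153, 179 and 164, and *Rgs2*, a brake on G protein signalling, listed at 133, 151 and 157 and at 157, 154 and 156. Neither separated the groups. The genes named next were chosen after their values were seen. *Dusp6*, a phosphatase that dampens growth factor signalling, was listed at 21, 17 and 16 and at 11, 10 and 6, with a log2 fold change of -0.96 (95% interval -1.53 to -0.38, adjusted p = 0.073 from limma). *Plk2*, an activity-induced kinase that acts at synapses, was listed at 45, 36 and 26 and at 21, 16 and 21, with a log2 fold change of -0.83 (adjusted p = 0.081 from limma). The groups of both genes did not overlap, and both passed the threshold when genes with a mean below 1 were left out or when the libraries were rescaled by median-of-ratios factors, settings in which 11.3% and 8.82% of all genes passed.

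Among 11 other late response genes, 1 was higher and 0 were lower before adjustment, against 9.59% and 13.6% of all genes tested. *Scg2*, the precursor of the peptide secretoneurin, was listed at 88, 94 and 113 and at 106, 82 and 116, and *Vgf*, another granule peptide precursor, at 36, 20 and 22 and at 18, 24 and 22. Both overlapped between the groups, with log2 fold changes of 0.04 and -0.24.

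Upstream of the set, 30 genes of kinases, phosphatases and constitutive factors were tested, and 4 were higher and 10 lower before adjustment. Over all genes tested, 9.59% were higher and 13.6% lower. Of the 30 genes 23 had a mean of at least 10, and 16.1% and 23.6% of all such genes were higher and lower. *Ppp3ca*, the catalytic subunit of calcineurin and the most abundant of the list, was listed at 866, 766 and 726 in sgLacZ and at 675, 639 and 651 in sgKcna1 libraries, with a log2 fold change of -0.26 (adjusted p = 0.15 from limma). *Mef2c*, the next most abundant, was listed at 221, 227 and 305 and at 431, 340 and 444, with a log2 fold change of 0.69 (95% interval 0.31 to 1.08, adjusted p = 0.06 from limma). The other MEF2 genes of the list, *Mef2a* and *Mef2d*, named after their values were seen, went the other way. Their log2 fold changes were -0.56 and -0.43 (adjusted p = 0.067 and 0.077 from limma). *Arnt2*, a dimer partner of the *Npas4* product that is named after its values were seen, was listed at 92, 92 and 65 and at 55, 53 and 46, with a log2 fold change of -0.67 (adjusted p = 0.066 from limma). The groups of *Ppp3ca*, *Mef2c*, *Mef2a*, *Mef2d* and *Arnt2* did not overlap. *Creb1* overlapped between the groups, at 121, 112 and 107 and at 113, 109 and 123.

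Of the 14 receptors and binding partners of the effectors, 1 was higher and 3 lower before adjustment, against 9.59% and 13.6% of all genes tested. A mean of at least 10 was reached by 12 of the 14, and 16.1% and 23.6% of all such genes were higher and lower. *Shank1*, a scaffold that binds Homer proteins, was listed at 256, 298 and 334 and at 320, 267 and 378, and *Ntrk2*, which encodes TrkB, at 276, 305 and 263 and at 263, 261 and 297. Both overlapped, with log2 fold changes of 0.11 and -0.04. *Homer3*, named after its values were seen, was listed at 24, 35 and 57 and at 63, 67 and 77 (log2 fold change 0.90, adjusted p = 0.12 from limma). Its groups did not overlap, and whether it differed from *Homer1* in response was not tested. The 3 lower genes, *Shank2*, *Sh3gl1* and *Grm5*, are also named after their values were seen, and their groups did not overlap. They had log2 fold changes of -0.94, -0.50 and -0.27 (adjusted p = 0.079, 0.093 and 0.17 from limma).

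**Figure D4:**
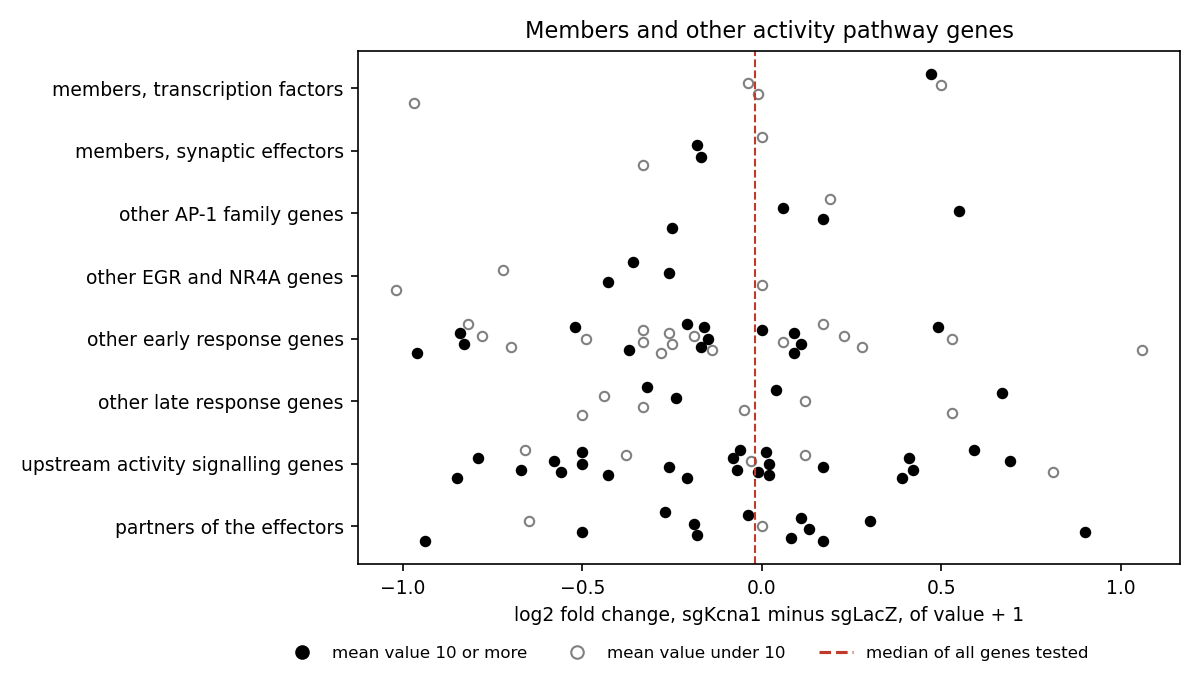
Log2 fold change of value + 1, sgKcna1 minus sgLacZ, on the horizontal axis, for the members and the 6 lists on the vertical axis; each point is a gene, filled where its mean value is 10 or more, and genes listed at 0 in a whole group are left out. The dashed line is the median of all genes tested (-0.02), and points of every list but the other EGR and NR4A genes and the synaptic members lie clearly on both sides of it.

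The cultures held neuronal transcripts and transcripts of other cells that also express several of these genes. Neuron markers were listed well above 0, 10 of 10 with a mean of at least 10, and summed to between 5700 and 6547 in sgLacZ and between 6740 and 8045 in sgKcna1 libraries, with 0 of 10 past the threshold and a median log2 fold change of -0.05. *Tubb3*, named after its values were seen, made up the higher sum: without it the other 9 markers summed to between 3838 and 3958 in sgLacZ and between 3454 and 3678 in sgKcna1 libraries. Of 10 astrocyte markers 3 were lower (*Aqp4*, *Sox9* and *Aldoc*), where 1.16% of all genes tested passed, and the sum was 961 to 1069 against 702 to 718. Their adjusted p from limma lay at the threshold, at 0.049 for *Aqp4* and just under 0.05 for the others. Before adjustment 6 of the 10 were lower and 0 higher. *Gfap*, *Aldh1l1* and *S100b*, named after their values were seen, did not follow, with log2 fold changes of -0.02, -0.01 and 0.32. Of 8 oligodendrocyte lineage markers 1 was lower (*Olig2*), with sums of 66 to 98 against 40 to 44 and *Mog* at 0, and *Mbp*, named after its values were seen, was listed at 3, 3 and 2 and at 7, 4 and 7 against the direction of that sum. Of 10 microglia markers 1 was higher (*C1qa*), with sums of 23 to 29 against 58 to 80 and *Tmem119* and *P2ry12* at 0. Dividing cell markers summed to 103 to 107 against 58 to 62, with 0 of 8 past the threshold. Before adjustment 6 of these 8 were lower (median log2 fold change -0.93), against 13.6% lower of all genes tested. Vascular and fibroblast markers summed to 9 to 14 against 4 to 10, with 0 of 8 past the threshold. These counts depended on the setting. For astrocyte, microglia and oligodendrocyte lineage markers in turn, 5, 5 and 2 passed with median-of-ratios factors and without the genes of a mean below 1. Of all genes, 8.82% and 11.3% passed in these settings. In both settings 3 neuron markers also passed (*Slc17a7* and *Tubb3* higher, *Snap25* lower), as did 2 dividing cell markers (*Cdk1* and *Mcm2*, lower). Without sgLacZ replicate 3, where 14.2% of all genes passed, 5 astrocyte, 3 microglia and 2 oligodendrocyte lineage markers passed. In that setting 4 neuron markers passed as well, with *Gad1* lower, and 1 dividing cell marker (*Pcna*, lower). In each list 0 passed with a pseudocount of 0.5, with the replicate block, or when any library other than sgLacZ replicate 3 was left out. The part of these shifts in the values of the activity-regulated genes was not tested.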

How the data were processed

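RNA was sequenced by the authors in 6 QuantSeq 3′ libraries. The methods name Bowtie2 and NCBI37/mm9 for these libraries, whereas the submitters' processing notes name STAR 2.7, featureCounts, DESeq2 and mm10, and the annotation is not given in the sources used here. The deposited score per gene is a whole number. Because totals fall 283 to 953 short of 1000000, and the variance between replicates of genes with a mean from 4 to 8 averaged 0.698 and 0.499 times the mean, less than counts give, it was taken as a value per 1000000 reads rounded by the authors. Depth is therefore unknown, and no count test was run. Gm42418 held 15.3% to 20.2% of a library and lowers all other values.

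Genes above 0 in at least 1 of the 6 libraries were tested with limma 3.58.1 in R 4.3.3 on log2(value + 1), with an intensity trend, the group as the only factor and a threshold of 0.05 on the adjusted p. Fold changes on this scale understate changes of low genes. Intervals are 95% intervals from limma. Motifs were searched with Python 3.11.15. Members and lists were chosen with earlier results of these data known. Genes named are the members, *Kcna1*, the 2 most abundant genes of each other list and the gene with the profile nearest to each member, given for members with a mean of at least 10, and others are marked as named after their values were seen. *Fosl1*, *Batf*, *Jund*, *Egr2*, *Egr3*, *Nab2*, *Creb1* and the cell type markers are named to describe lists. Same-numbered libraries deviated from their group means with correlations of 0.014, 0.114 and 0.154 across 8050 genes, so that the numbers were not taken as pairs. A gene of the upstream list is not reported here by name.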

Additional observations from a re-analysis of the deposited data

How the results depend on the processing

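The 10 members were recomputed under 14 alternatives, 6 of which leave out 1 library, giving 131 values, since scarce members drop out under the low-value filters. Of these, 108 kept their direction and their side of the threshold, 9 turned sign (all of *Fos* or *Junb*) and 2, both of *Fosb*, passed the threshold. The other 12 are of *Arc*, which has no direction as reported and did not pass. The number of members past the threshold, 0 as reported, was 1 without the intensity trend, and 0 to 1 with a library left out (1 without sgLacZ replicate 3). The sign turned for *Fos* (0.07 with median-of-ratios and 0.09 with upper-quartile factors) and *Junb* (0.04 and 0.07), and the other turns came with a library left out, where *Fos* ranged from -0.14 to 0.16 and *Junb* from -0.37 to 0.19. The median-of-ratios and upper-quartile factors move the median of the 8050 better expressed genes by 0.08 and 0.11 on the log2 scale, about as far as these values moved. The median over the members ranged from -0.13 to 0.14 with a library left out.

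*Kcna1* had a log2 fold change of 1.83 with an adjusted p of 0.11 under the replicate block, where 0 of all genes passed, and 1.73 to 1.99 with a library left out. The block also ended the 5 calls among astrocyte, microglia and oligodendrocyte lineage markers, and changed no call of the members or pathway lists. Replicate numbers were not taken as pairs, since 1 of the 3 same-numbered correlations was only 0.014, although every library except sgLacZ replicate 1 correlated best with its own number, a hint from the data and not from the design.

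The counts for the pathway lists, 0 each as reported, depended on the filter and scaling, and the cause was not tested. For other early response genes, upstream genes and partners of the effectors in turn, they were 3, 5 and 1 for genes with a mean of at least 1, 1, 8 and 2 for genes with at least 10 in every library, 2, 5 and 1 with median-of-ratios and again with upper-quartile factors, 3, 6 and 2 without Gm42418, and 1, 1 and 0 without the intensity trend. With a library left out the ranges were 0 to 6, 0 to 9 and 0 to 2, and 0 to 3 for the other EGR and NR4A genes, with every call in the setting without sgLacZ replicate 3. Over the 6 lists together 9.78%, 20.8%, 8.08%, 8.08% and 11.1% of the tested genes passed with the filters, the rescalings and without Gm42418, where 11.3%, 27.6%, 8.82%, 10.6% and 9.27% of all genes did, with 2.02% against 1.03% without the intensity trend and 20.4% against 14.2% without sgLacZ replicate 3. In all genes 226 of 19504 passed as reported, 10 with a pseudocount of 0.5, 1543 of 13604 and 1946 of 7048 with the filters, 1721 and 2058 of 19504 with the rescalings, 1808 of 19503 without Gm42418, 201 without the trend and 0 to 2711 with a library left out. Unknown depth and rounding to whole numbers limit what can be said of the 7 members with a mean below 10.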
